A study of Mus musculus with 6 samples.

Results

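A set of 10 genes of prostaglandin synthesis, transport, reduction and reception were followed by name in mouse prostate tumor cells, and 9 of the 10 had a value among the 30142 genes tested. They were Ptgs2, Ptges, Ptges2, Ptges3, Ptgis, Slco2a1, Ptgr1, Ptger2 and Ptger4, each read by 1 transcript cluster, which is the array's group of probes for one gene. Ptgs1 was not analysed here. The cells came from allografts of MCRedAL, a mouse prostate cancer line marked by the red fluorescent protein mCherry, grown in male mice whose strain and age the labels do not give. The tested tumors were 3 allografts whose hosts received degarelix under the skin once tumors measured about 500 mm2, as the labels write the unit; this drug blocks the GnRH receptor of the pituitary and so lowers testosterone. The other 3 tumors were untreated and are titled Intact. Tumor cells of both groups were sorted for mCherry and against CD45 of leukocytes, CD11b of myeloid cells and a macrophage surface antigen, and each tumor was read on 1 Affymetrix MTA 1.0 array. The labels call the 3 samples of a group biological replicates, all tumors derive from a single line, and the tag 7dPC in the titles of the treated samples is not explained.

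Prostaglandins are lipid signals made from arachidonic acid. Phospholipases free the acid from membranes, the cyclooxygenases Ptgs1 and Ptgs2 turn it into an unstable intermediate, and terminal synthases turn that into prostaglandin E2, prostacyclin or other products. Ptgs1 is made in many cells without a stimulus, while Ptgs2 is known as the inducible form, switched on by cytokines, growth factors and stress. Carriers such as Slco2a1 take prostaglandins back into cells for breakdown, and the receptors Ptger2 and Ptger4 answer prostaglandin E2 by raising cyclic AMP.

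Values are log2 expression levels, and each change is degarelix minus untreated on that scale with the moderated standard error (SE) of limma. The array's 23 background probe sets lay between 2.14 and 6.93, and a level in that range cannot be told from background with certainty. Between 29.8% and 30.9% of the genes tested exceeded 6.93 on each array. The sorted cells had Krt8, a luminal keratin, at 11.83 to 12.09 in degarelix and 11.25 to 11.90 in untreated samples, while the epithelial adhesion genes Epcam (3.84 to 3.98 in degarelix and 3.79 to 3.89 in untreated samples) and Cdh1 (4.81 to 5.07 in degarelix and 4.80 to 4.92 in untreated samples) were within the background range. In all, 3 of 6 measured luminal markers averaged above it. Untreated replicate 1 stood apart on the second principal component, which held 15.7% of the variance, at 24.9 against -11.2 to 5.1 for the other arrays, and it was the highest untreated array for macrophage markers. A bulk array cannot tell fewer cells of a type from less RNA per cell.

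Of the 9 measured genes, 2 rose after degarelix, 0 fell and 7 did not pass the test. The risers were Ptgs2, the inducible cyclooxygenase, by 0.92 and Slco2a1, the prostaglandin transporter, by 0.47. The terminal synthases Ptges, Ptges2, Ptges3 and Ptgis, the reductase Ptgr1 and the receptors Ptger2 and Ptger4 had values between -0.15 and 0.18. A gene was called where its limma p, adjusted by Benjamini-Hochberg across every gene tested, was under 0.05. By this rule 11.7% of all genes tested were called, 4.19% as higher and 7.51% as lower. The median change of the 9 genes was 0.00, beside 0.04 over all genes tested. The 3 genes whose groups did not overlap were Ptgs2, Slco2a1 and Ptgr1, against 31.2% of all genes tested, so this count is near the background.

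**Figure D1:**
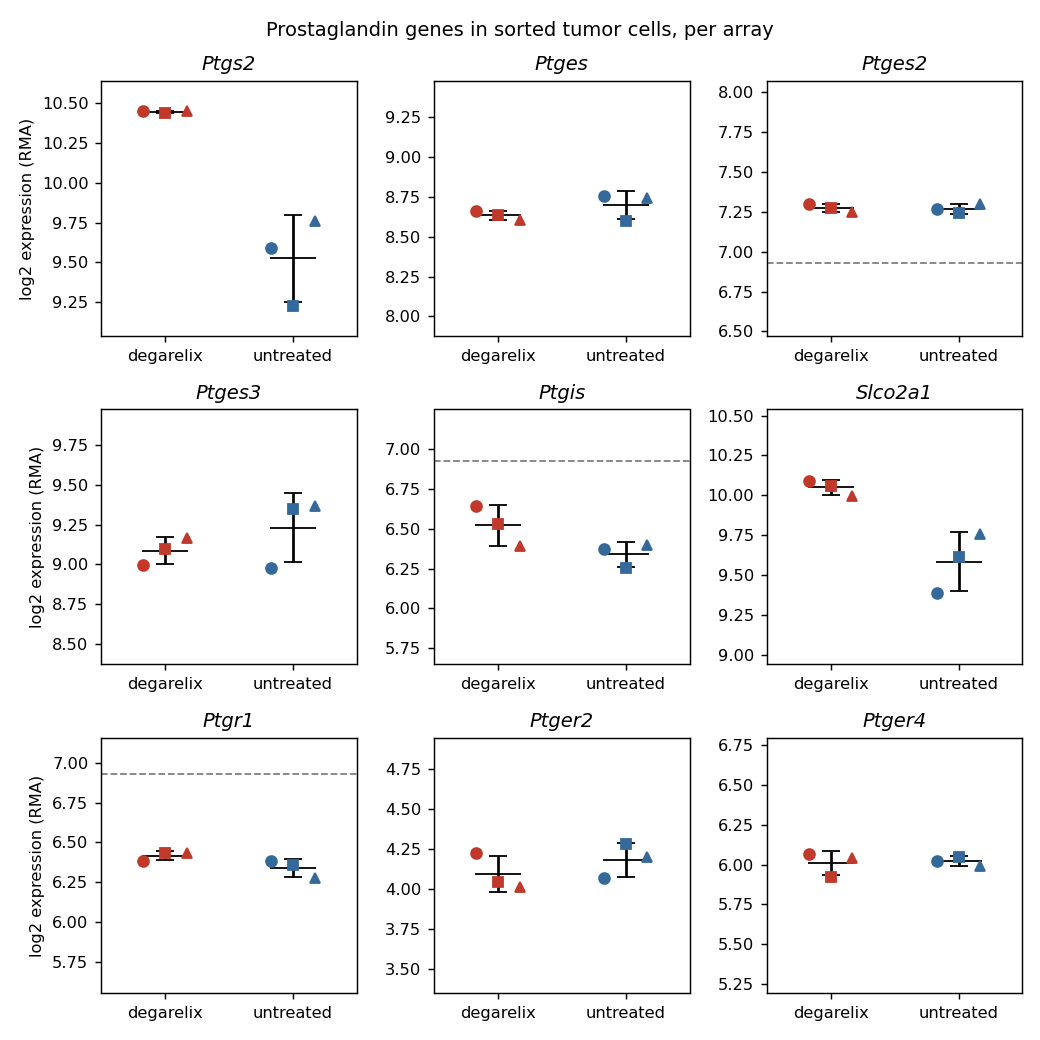
Log2 expression (RMA) of the 9 measured prostaglandin genes on each array, degarelix (red) left and untreated (blue) right. Circles, squares and triangles are replicates 1, 2 and 3, horizontal bars are group means and whiskers are 1 SD (n = 3 each). Every panel spans the same log2 range, and the dashed line is the brightest background probe set (6.93). The groups stand apart for Ptgs2 and Slco2a1 and lie close together or overlap in the other panels.

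Ptgs2 converts arachidonic acid to the precursor of all prostaglandins and is the target of the coxib drugs. Its level was 10.45, 10.44 and 10.45 in the 3 degarelix samples, against 9.59, 9.23 and 9.76 in the 3 untreated samples. The treated arrays spread over 0.0135, all above the highest untreated array, while the untreated arrays spread over 0.53. The group means were 10.44 ± 0.01 in degarelix and 9.53 ± 0.27 in untreated samples (SD, n = 3 each). The change of 0.92 (SE 0.12, limma adjusted p = 0.00252) is a 1.89-fold difference, with a 95% interval of 1.55 to 2.30-fold. All levels lay above the background range. The call held in each of 15 alternative analyses, with changes of 0.77 to 1.04 and adjusted p of 5.99e-04 to 0.0174. These are not independent checks. The other variance model, level filter, cluster means, replicate block and 1.2-fold test could not alter the size of the change. With 1 cluster for Ptgs2, the cluster mean reused the same values. The lowest change was that without untreated replicate 2, the sample with the lowest level. Without untreated replicate 1 the change was 0.95 (limma adjusted p = 0.0048).

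Slco2a1 encodes the carrier that takes prostaglandins up from outside the cell, a step before their breakdown. Its level was 10.09, 10.06 and 9.998 in degarelix samples, against 9.39, 9.61 and 9.75 in untreated samples. Every treated array was above every untreated one, and untreated replicate 3 came closest. The means were 10.05 ± 0.05 in degarelix and 9.58 ± 0.19 in untreated samples (SD, n = 3 each). The change of 0.47 (SE 0.10, limma adjusted p = 0.0187) is a 1.38-fold difference, with a 95% interval of 1.18 to 1.61-fold. The call was less stable than that of Ptgs2 in the alternatives run: it was lost without degarelix replicate 1 (adjusted p = 0.0768), without degarelix replicate 2 (0.0676), with median centring of the arrays (0.0582) and in a test against a 1.2-fold change (0.542). The other variance model, level filter, cluster means, replicate block and 1.2-fold test could not alter the size of this change. Across the 15 alternatives the size lay between 0.37 and 0.58. The lowest of these was the change without untreated replicate 1, which had the lowest level (adjusted p = 0.0194).

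The promoter windows of both risers are shown because these are the called genes among the 9 measured. They are RefSeq sequences of build GRCm38.p6, 250 bases before to 50 bases after the annotated start, written 5′ to 3′ on the gene's strand. Ptgs2 is at chr1:150099781-150100080 and Slco2a1 at chr9:103008237-103008536, both on the plus strand. Capitals mark matches on either strand to the letters TATAAA, an NF-kB site (GGG, any 5 bases, CC), TTNNGNAA (C/EBP), TGANTCA (AP-1), TGACGTCA and its core TGACG (CREB), CACGTG (E-box) and AGAACA (part of the site of androgen and glucocorticoid receptors); the looser E-box CANNTG was searched but not capitalised.
Ptgs2: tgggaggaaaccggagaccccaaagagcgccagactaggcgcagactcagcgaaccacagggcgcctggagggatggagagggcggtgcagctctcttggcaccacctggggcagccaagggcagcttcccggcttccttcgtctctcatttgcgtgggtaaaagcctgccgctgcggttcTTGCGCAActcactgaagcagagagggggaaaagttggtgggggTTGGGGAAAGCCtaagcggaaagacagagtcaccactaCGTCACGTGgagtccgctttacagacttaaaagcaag
Slco2a1: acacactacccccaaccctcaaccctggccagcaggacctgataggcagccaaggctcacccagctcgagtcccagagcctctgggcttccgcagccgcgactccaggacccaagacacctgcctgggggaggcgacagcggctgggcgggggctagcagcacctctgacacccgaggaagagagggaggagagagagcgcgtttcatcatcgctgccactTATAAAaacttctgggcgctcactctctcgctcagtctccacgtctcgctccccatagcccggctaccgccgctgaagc
In Ptgs2 the letters of a C/EBP site lay 69 to 62 bases before the start. A second C/EBP match, 25 to 18 bases before it, overlapped the NF-kB match at 23 to 14 bases before it. The core TGACG, on the minus strand at bases 14 to 18 after the start, overlapped the E-box CACGTG at bases 17 to 22. All distances are from the annotated start, and where transcription began in these cells was not measured. In Slco2a1 the capitals mark TATAAA alone, 29 to 24 bases before the start, and its window held no capitalised match to the other letters. These are short letters that many promoters hold: among 32851 windows of the same length, 50.8% had the NF-kB letters, 40.7% TTNNGNAA, 20.8% TGACG, 19.0% AGAACA, 13.6% TATAAA, 7.81% TGANTCA, 7.15% CACGTG, 1.79% TGACGTCA and 72.3% CANNTG. Windows were found for 9 of the 10 genes named at the outset, Ptgs1 among them, and 6 of these 9 held the NF-kB letters, 5 TTNNGNAA, 2 CACGTG and 3 AGAACA. A match is a description of the letters and does not show that a factor binds there.

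Ptges, Ptges2 and Ptges3 make prostaglandin E2 from the cyclooxygenase product, and 0 of the 3 passed the test. Ptges, the membrane-bound inducible form that is often switched on together with Ptgs2, was at 8.66, 8.63 and 8.60 in degarelix samples, against 8.75, 8.60 and 8.74 in untreated samples. The groups overlapped. Its change was -0.07 (SE 0.07, limma adjusted p = 0.578) with a 95% interval of -0.23 to 0.10, and its levels lay above the background range. Ptges2, a second membrane-associated synthase, was at 7.30, 7.27 and 7.25 in degarelix samples, against 7.27, 7.24 and 7.30 in untreated samples, with an interval of -0.14 to 0.15 around a change of 0.00. Ptges3, the cytosolic form, is also known as p23, a co-chaperone of Hsp90 that helps steroid receptors hold their hormone. It was at 9.00, 9.09 and 9.16 in degarelix samples, against 8.98, 9.35 and 9.37 in untreated samples. The degarelix samples lay between untreated replicate 1 and the other untreated samples, and the change of -0.15 (SE 0.11) had an interval of -0.40 to 0.11. Without untreated replicate 1 it was -0.27 (limma adjusted p = 0.0538). The annotation of its cluster also lists the pseudogene Ptges3-ps, so its signal may include that copy, which was not tested.

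Ptgis makes prostacyclin, a product best known from endothelium and smooth muscle. Its level was 6.65, 6.53 and 6.39 in degarelix samples, against 6.38, 6.25 and 6.40 in untreated samples, within the background range. The groups overlapped through degarelix replicate 3, and the change was 0.18 (SE 0.09, limma adjusted p = 0.222; interval -0.01 to 0.38). With weights for the arrays it passed the test (0.23, adjusted p = 0.0327). Ptgr1 encodes a reductase that inactivates prostaglandins after their first oxidation and also leukotriene B4. It was at 6.38, 6.43 and 6.43 in degarelix samples, against 6.38, 6.36 and 6.28 in untreated samples, all within the background range. The values did not overlap, with the lowest degarelix and the highest untreated level equal to 2 decimals, and the change of 0.08 (SE 0.07, limma adjusted p = 0.481) did not pass the test.

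The receptors for prostaglandin E2 were dim. Ptger4 was at 6.07, 5.93 and 6.04 in degarelix samples, against 6.02, 6.05 and 5.99 in untreated samples, with a change of -0.01 (limma adjusted p = 0.939; interval -0.17 to 0.15). Ptger2 was at 4.23, 4.04 and 4.01 in degarelix samples, against 4.07, 4.28 and 4.20 in untreated samples, with a change of -0.09 (limma adjusted p = 0.542; interval -0.29 to 0.11). The groups overlapped for both, and both levels lay within the background range. A change of RNA present near background would be compressed on this scale, so these intervals bound the measured signal and not the change of the receptors' RNA.

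**Figure D2:**
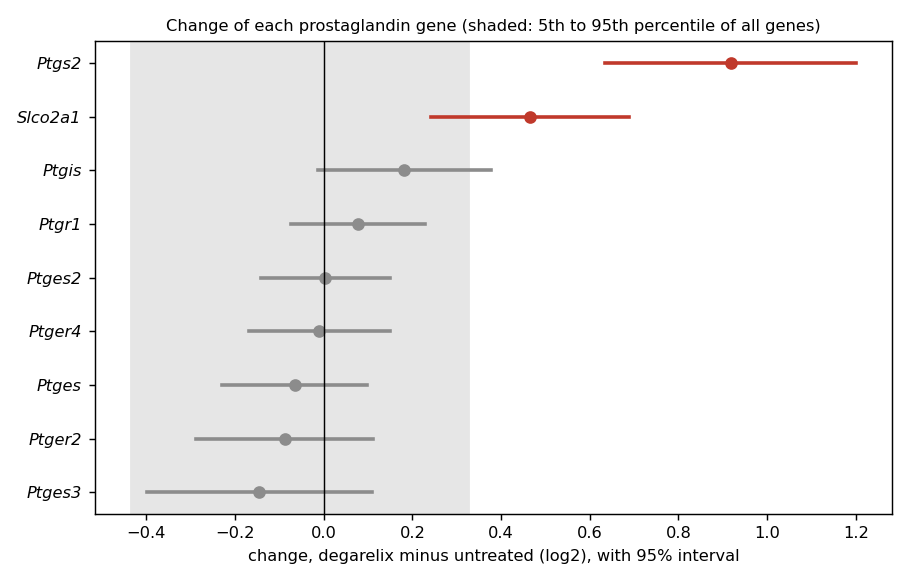
Change of each measured prostaglandin gene, degarelix minus untreated (log2), with its 95% interval from limma. Red marks genes with an adjusted p under 0.05, grey the others, and the shaded band runs from the 5th to the 95th percentile of all genes tested (-0.44 to 0.33). Ptgs2 (0.92) and Slco2a1 (0.47) lie outside the band, and the other 7 genes lie inside it.

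Of 19 measured genes that release, remake or hold back arachidonic acid, upstream of the cyclooxygenases, 2 rose, 1 fell and 16 did not pass the test, with a median change of 0.17. This count is near the 11.7% called among all genes. Acsl4, which attaches arachidonic acid to coenzyme A, was at 9.25, 9.28 and 9.35 in degarelix samples, against 8.89, 8.35 and 8.71 in untreated samples (change 0.64, SE 0.13, limma adjusted p = 0.0145). Faah, a hydrolase that frees arachidonic acid from anandamide, rose by 0.47 (SE 0.08, adjusted p = 0.00663). Pla2g12a, a secreted phospholipase A2, was at 7.30, 7.55 and 7.54 in degarelix samples, against 7.88, 8.25 and 8.23 in untreated samples (change -0.66, SE 0.12, adjusted p = 0.00924). The groups were apart for these 3 genes, but in the test against a 1.2-fold change Acsl4 (adjusted p = 0.199), Faah (0.276) and Pla2g12a (0.131) were not called. Pla2g4a, the cytosolic phospholipase A2 that most often feeds the cyclooxygenases, had a change of 0.31 (SE 0.13) and was not called (limma adjusted p = 0.164). Anxa1, which encodes annexin A1, an anti-inflammatory protein known to restrain phospholipase A2, had 0.28 (SE 0.08, adjusted p = 0.0514). Pla2g4a and Anxa1 were chosen for their roles after their values were seen. Without degarelix replicate 1 Acsl4 lost its call (adjusted p = 0.0524) and 1 gene of the list rose, while 3 rose without degarelix replicate 3.

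Among 6 measured synthases and reductases of other prostanoids, 1 fell and 0 rose, with a median of -0.03, beside 11.7% called among all genes. The one that fell was Ptgds, the lipocalin-type synthase of prostaglandin D2. It was at 9.71, 9.70 and 9.81 in degarelix samples, against 10.30, 11.06 and 10.93 in untreated samples. All treated arrays lay below all untreated ones, and the change was -1.02 (SE 0.17, limma adjusted p = 0.00746). It kept its call in all 15 alternatives, with changes of -1.26 to -0.88. As for Ptgs2, some of these settings could not alter the size of the change. Hpgds, the haematopoietic synthase of the same product, and Tbxas1, the thromboxane synthase, were at background levels with values of -0.02 and -0.03; both were chosen for their roles after their values were seen.

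Of 6 measured breakdown enzymes and carriers beside Ptgr1 and Slco2a1, 1 rose and 0 fell (median 0.13). Over all genes tested 11.7% were called. Slco2b1, an organic anion carrier, rose by 0.31 (SE 0.07, limma adjusted p = 0.0265), with levels within the background range. Hpgd, the dehydrogenase that takes the first step of prostaglandin breakdown, had 0.27 (SE 0.08, adjusted p = 0.0716), also at levels within the background range. Abcc4, an exporter of prostaglandin E2, had -0.28 (SE 0.22, adjusted p = 0.441). Hpgd and Abcc4 were chosen for their roles after their values were seen. Slco2b1 lost its call without degarelix replicate 1, degarelix replicate 2, untreated replicate 2 or untreated replicate 3 (adjusted p = 0.0928 to 0.101) and in the test against a 1.2-fold change (adjusted p of 1). Each of these 4 omissions left 0 genes of the list higher, and without untreated replicate 1 there were 2. Of the 8 other prostanoid receptors and associated proteins, Ptgfrn rose and 0 fell (median 0.21). Ptgfrn is a membrane protein that binds the prostaglandin F receptor, and it was at 7.51, 7.28 and 7.73 in degarelix samples, against 6.82, 6.92 and 6.91 in untreated samples (change 0.62, SE 0.11, limma adjusted p = 0.00933). Its untreated levels also lay within the background range, and it was not called in the test against a 1.2-fold change (adjusted p = 0.153). Without untreated replicate 1 the list had 2 genes higher. The other 7, all true receptors of the family, did not pass the test with all samples and averaged within the background range.

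The lipoxygenases draw on the same arachidonic acid. Of 17 measured lipoxygenase and leukotriene genes, 2 rose and 0 fell (median 0.14), beside 11.7% called among all genes tested. Mgst2, a transferase able to make leukotriene C4, was at 7.57, 7.63 and 7.70 in degarelix samples, against 6.96, 7.06 and 7.17 in untreated samples (change 0.57, SE 0.08, limma adjusted p = 0.00276). It was not called in the test against a 1.2-fold change (adjusted p = 0.0692), nor was Aloxe3 (0.829). Aloxe3, an epidermal-type lipoxygenase, had 0.49 (SE 0.13) at a limma adjusted p of 0.0498. Its levels in untreated replicates 1 and 3 (6.46 and 6.92) lay within the background range. Without untreated replicate 1 its change was 0.32. Its call was lost without degarelix replicate 1, 2 or 3 or untreated replicate 3 (0.0789 to 0.161). It was also lost with each array centred on its median (0.124). The list then had 1 gene higher without degarelix replicate 1, degarelix replicate 2 or untreated replicate 3. It had 1 gene lower without untreated replicate 1 and 1 lower without untreated replicate 2.

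**Figure D3:**
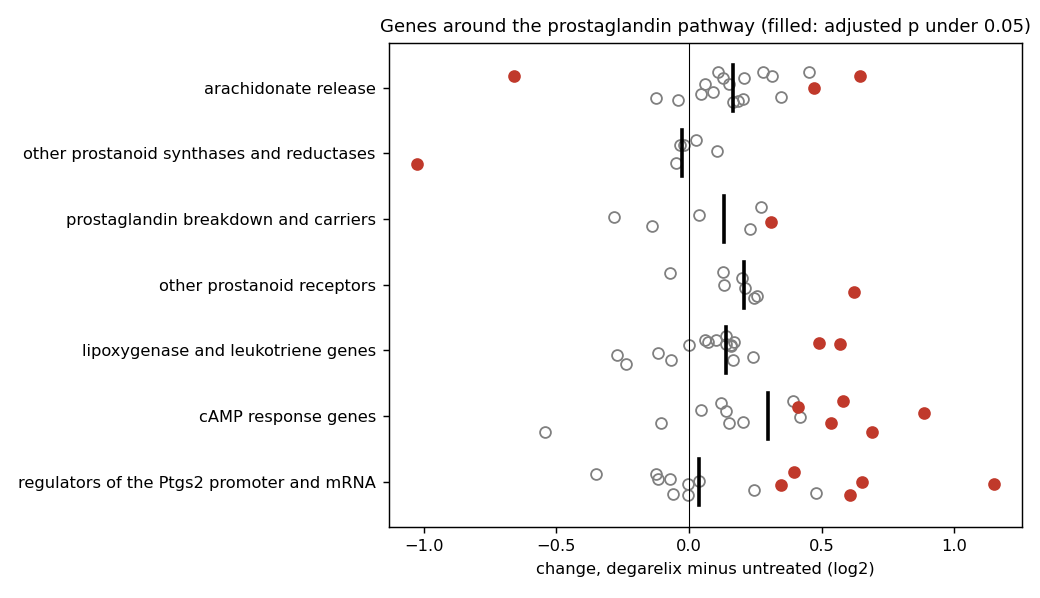
Change of each measured gene (log2, degarelix minus untreated) in 7 lists around the prostaglandin pathway. Filled red circles passed the test (adjusted p under 0.05), open grey circles did not, and black bars are list medians; circles are spread vertically only so that they can be seen. Ptgds at -1.02 is the only filled point of its list, and the cyclic AMP response list has the highest median (0.30).

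Cyclic AMP is the second messenger of Ptger2 and Ptger4. Of 14 measured genes that cyclic AMP is known to induce, 5 rose and 0 fell, with a median of 0.30. Over all genes tested 4.19% rose, 7.51% fell and the median was 0.04. Both receptors lay within the background range, and their signalling was not tested. Dusp1, a MAP kinase phosphatase, was at 11.21, 11.34 and 11.54 in degarelix samples, against 10.62, 10.30 and 10.52 in untreated samples (change 0.89, SE 0.11, limma adjusted p = 0.00167). Sik1, a salt-inducible kinase, rose by 0.58 (SE 0.11, adjusted p = 0.0101) and the immediate early gene Fos by 0.54 (SE 0.12, adjusted p = 0.0265). The other 2 risers, named after their values were seen, were Fosb at 0.69 and the growth factor gene Vegfa at 0.41. Many other signals and the handling of tissue induce the same genes. Dusp1, Sik1 and Fos were highest in degarelix replicate 3. The count was 3 without that sample and 4 without degarelix replicate 2. It was 2 without degarelix replicate 1, untreated replicate 2 or untreated replicate 3, and 7 without untreated replicate 1. Fos lost its call without degarelix replicate 1 (adjusted p = 0.063), untreated replicate 2 (0.0668) or untreated replicate 3 (0.0894), with median centring (0.0726) and with the replicate number as a block (0.0562). In the test against a 1.2-fold change Dusp1 kept its call (adjusted p = 0.0122), while Sik1 (0.196) and Fos (0.472) did not.

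Of 15 measured regulators of the Ptgs2 promoter and of the stability of its mRNA, 5 rose and 0 fell (median 0.04). Over all genes tested 4.19% rose and 7.51% fell, and the median was also 0.04. Cebpd, a C/EBP transcription factor of the acute phase response, was at 7.77, 7.56 and 7.67 in degarelix samples, against 6.23, 6.72 and 6.61 in untreated samples. The groups did not overlap, and the change was 1.15 (SE 0.13, limma adjusted p = 9.13e-04). All 3 untreated levels lay within the background range, so this is a difference of measured signals. Relb, an NF-kB subunit, rose by 0.39 (SE 0.07, adjusted p = 0.0075) and Jun, a subunit of AP-1, by 0.65 (SE 0.12, adjusted p = 0.0103). The other 2 risers were the NF-kB subunit Nfkb2 at 0.61 and Zfp36l1, an mRNA-destabilising protein, at 0.35. Cebpb, another C/EBP factor known to act on Ptgs2, had -0.01 (adjusted p = 0.968), and Elavl1 and Zfp36, whose proteins stabilise and destabilise the Ptgs2 mRNA, had -0.01 and -0.06 (adjusted p = 0.972 and 0.694). The genes from Nfkb2 to Zfp36 in this list were chosen for their roles after their values were seen. The count was 3 without degarelix replicate 1, 2 or 3 or untreated replicate 3, while Cebpd, Relb and Jun each kept their call on leaving out any sample. In the test against a 1.2-fold change Cebpd kept its call (adjusted p = 0.00405), while Relb (0.624) and Jun (0.145) did not.

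The genes whose profile over the 6 arrays was most like that of Ptgs2, among 7184 genes above background, were Cd44 (Pearson r = 0.999), the hyaluronan receptor, and Mme (r = 0.997), the membrane metalloendopeptidase neprilysin. Cd44 was at 9.25, 9.21 and 9.26 in degarelix samples, against 8.43, 8.15 and 8.59 in untreated samples. It shared with Ptgs2 the order of the untreated samples and the small spread of the treated ones. Mme was at 9.50, 9.50 and 9.49 in degarelix samples, against 8.03, 7.20 and 8.37 in untreated samples. For Slco2a1 the most similar profiles were those of Armc7 (r = 0.998) and of Cd63 (r = 0.997), a tetraspanin of endosomes. Their changes of 0.19 and 0.25 missed the threshold (limma adjusted p = 0.121 and 0.0585), although Cd63 passed in 4 and Armc7 in 3 of the 15 alternatives. These correlations describe 6 arrays in 2 groups, and the best of many genes will be high.

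Markers of other cell types moved with the groups in part. Over all genes tested 11.7% were called, 4.19% as higher and 7.51% as lower, so 1 call in a list of 8 is near the background. Of 10 macrophage markers 0 passed the test, all had values below 0, and the list averaged 5.78 to 5.82 over the degarelix samples and 5.75 to 7.03 over the untreated samples, highest in untreated replicate 1. Lyz2, a lysozyme of myeloid cells, was at 5.51, 5.98 and 6.27 in degarelix samples, against 9.02, 6.26 and 7.65 in untreated samples. In untreated replicate 1, the sample highest for macrophage markers, Ptgs2 lay between the other untreated samples. Slco2a1 (9.39) and Ptgds (10.30) had their lowest untreated level in that sample. Of 7 fibroblast markers 2 rose, Dcn by 1.46 and Fbln1 by 1.07, and the list averaged 7.82 to 8.45 in degarelix and 7.33 to 7.67 in untreated samples, highest in degarelix replicate 3. Without degarelix replicate 3 the change of Ptgs2 was 0.92 (limma adjusted p = 0.0161) and that of Slco2a1 0.49 (adjusted p = 0.0381). The fibroblast list still averaged 7.99 and 7.82 in degarelix replicates 1 and 2, above every untreated sample. Leaving out replicate 3 therefore cannot separate these genes from the fibroblast markers. Of 8 endothelial markers Vwf fell (-0.71) and 0 rose, and the list averaged 6.09 to 6.10 in degarelix and 6.15 to 6.48 in untreated samples. Smooth muscle and pericyte markers had 1 of 8 lower (Rgs5), neutrophil markers 1 of 8 higher (Ly6g), and mast cell, platelet and lymphocyte markers 0 of 8, 0 of 5 and 0 of 8 past the test. All neutrophil, mast cell and lymphocyte markers averaged within the background range. Only 2 of 10 macrophage, 3 of 8 endothelial and 1 of 5 platelet markers averaged above it. The same held for 5 of 7 fibroblast and 4 of 8 smooth muscle and pericyte markers. Of 6 basal markers Krt14 and Krt15 rose (0.38 and 3.88), and of 6 luminal markers Krt19 rose (1.88). Rgs5 and Krt14 lay within the background range. The part of these cells in the values of Ptgs2, Slco2a1 and Ptgds was not tested.

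**Figure D4:**
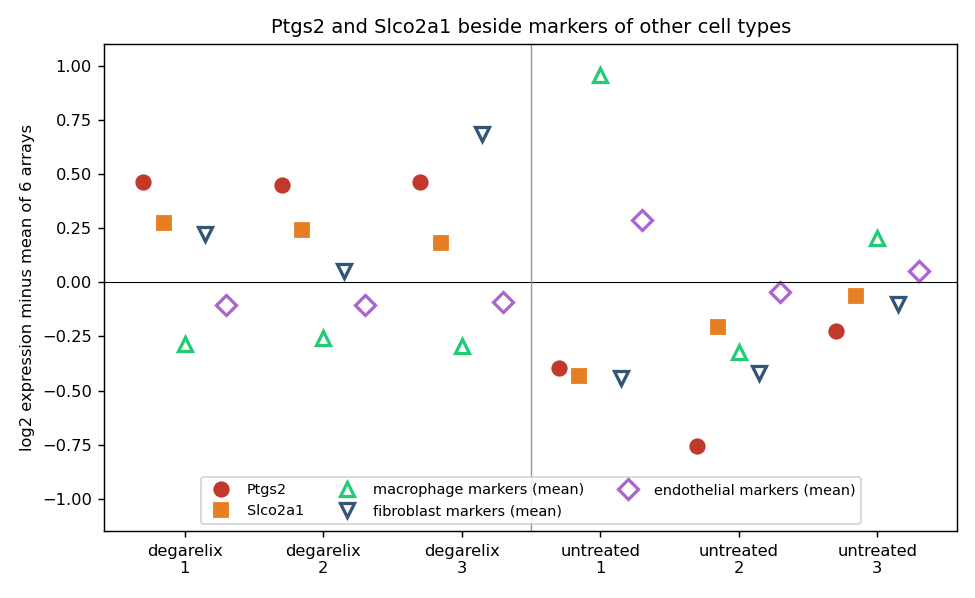
Ptgs2, Slco2a1 and the mean of 10 macrophage, 7 fibroblast and 8 endothelial markers on each array, as log2 expression minus the mean over the 6 arrays, degarelix samples left of the line and untreated samples right. Ptgs2 and Slco2a1 are above 0 on all 3 degarelix arrays and below 0 on all 3 untreated arrays. Macrophage markers peak in untreated replicate 1 and fibroblast markers in degarelix replicate 3.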

How the data were processed

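Labelled RNA of sorted tumor cells was hybridised to Affymetrix MTA 1.0 arrays, 1 per tumor, 3 degarelix and 3 untreated. The deposited values are log2 expression, made by the authors with Affymetrix Expression Console and RMA per the submitters' processing notes, with the version not given in the sources used here. By design RMA normalizes arrays to a common distribution and compresses changes of dim genes. Of 72688 rows, 6732 control or background probe sets were left out. Clusters with exactly 1 symbol in the platform annotation numbered 30604, with symbols updated through Entrez identifiers (RefSeq table of GRCm38.p6, 827 changed). The brightest cluster per gene gave 30142 genes. They were fitted in limma 3.58.1 (R 4.3.3), lmFit and eBayes, in a two-sided test; p-values were adjusted by Benjamini-Hochberg across the 30142 genes. In simulated data of 30142 genes for this comparison, limma called 90 of 100 genes changed by a log2 of 1, 43 of 100 changed by 0.5 and 7 of 29942 unchanged genes. The simulation changed far fewer genes than the 3526 called in the data and drew noise independently for each array. Its rates therefore need not hold for these data. The array number limits precision. Each p-value weighs a change against the spread among these samples, with the variance moderated across all genes tested. The genes and lists were chosen with earlier results of these data known. Beyond the 9 genes, the rule for naming took up to 3 called genes per list and direction and the 2 best-correlated genes of each riser. Alternatives were 3 normalizations, another variance model, array weights, a level filter, cluster means, the replicate block, a 1.2-fold test and leaving out each sample. Python 3.11.15, pandas 2.3.3 and matplotlib 3.10.9 were used. No batch information was found.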

Additional observations from a re-analysis of the deposited data

How the results depend on the processing

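The number of prostaglandin genes called higher was 2 with all samples. It was 1 with each array centred on its median and 1 in the test against a 1.2-fold change, where Ptgs2 remained (adjusted p = 0.0174) and Slco2a1 did not (0.542); leaving out single samples gave 1 to 2, and array weights gave 3, with Ptgis added. The number called lower was 0 in every alternative run. The count over all genes was 3526, against 9912 with array weights and 749 in the 1.2-fold test, and 1590 to 4700 on leaving out single samples. Of all calls, 35.8% were higher, against 26.3% with median centring, 44.9% with quantile normalization and 51.0% with array weights, while the median change of all genes moved by less than 0.1. Changes near 0 crossed it: Ptges was at 0.0283 with cyclic loess and 0.0128 with quantile normalization, Ptges2 at -0.0441 with median centring, and on leaving out single samples Ptges2 ranged over -0.0123 to 0.0188 and Ptger4 over -0.0370 to 0.0330. Ptger2 gave no value in the filter on dim genes. The replicate block gave 3806 calls and kept Ptgs2 (0.00605) and Slco2a1 (0.0346), while Aloxe3 (0.0574) and Fos (0.0562) lost theirs. Deviations of same-numbered samples correlated at 0.16, 0.04 and 0.20, each the highest for its samples, which is a hint from the data and not the design. Leaving out each sample for the gene lists was chosen after seeing the data. The causes of these shifts were not tested.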

Other observations

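Ptgs2os, a long noncoding RNA gene annotated 157 bases upstream of the Ptgs2 start, was looked at for its position after the values of Ptgs2 were known. Its level was 5.30, 5.28 and 5.19 in degarelix samples, against 5.08, 5.09 and 5.18 in untreated samples. Its change was 0.14 (SE 0.07) and missed the threshold (limma adjusted p = 0.254), and all levels lay within the background range.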
